A study of Mus musculus with 4 samples.

Results

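The genes described here encode voltage-gated and potassium ion channels, measured by bulk RNA-seq of polyadenylated RNA from the mouse cerebral cortex at embryonic day 15 (E15). Members were chosen by gene symbol alone: the Kcn genes with a family letter and number, the Scn genes ending in a or b, the Cacna1, Cacnb and Cacng genes, Cacna2d1, Cacna2d3 and Cacna2d4, and the Hcn genes. The rule took 95 of the 13289 genes analysed: 62 K, 9 Na, 21 Ca and 3 HCN channel genes. All 95 had enough counts to be tested. The study has 2 control libraries, whose titles say WT, and 2 Lhx2 cKO libraries, whose titles say Lhx2cKO. The first is read as wild type and the second as conditional knockout. The labels do not say which Cre line or allele was used or whether embryos were pooled. They also do not say whether the libraries come from different litters. The p-values therefore measure only the spread between these libraries, which the fit in large part shares over all genes. Lhx2 is a LIM-homeodomain transcription factor of cortical progenitors, and the design sets cortex in which it was targeted against cortex in which it was not.

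Ion channels let potassium, sodium or calcium cross the cell membrane and so set its voltage. Potassium channels hold the resting potential and end action potentials, sodium channels start action potentials, voltage-gated calcium channels turn depolarization into calcium entry, and HCN channels carry a mixed cation current that opens on hyperpolarization. In the embryonic cortex, progenitors rely mainly on leak and inward-rectifier potassium currents, and voltage-gated sodium and potassium currents grow as neurons mature.

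Values are CPM, read counts scaled to a common library size and corrected for library composition, and a gene is said to be called when its Benjamini-Hochberg adjusted p was under 0.05 over 13288 tested genes in edgeR's quasi-likelihood test. Library totals ranged from 22294237 to 24609627 counts. Lhx2 itself was at 316 and 287 CPM in control and at 239 and 247 CPM in Lhx2 cKO, a log2 change of -0.31 (standard error 0.0976, adjusted p 0.0191), so 80.7% of the control level remained in the bulk tissue. The call of Lhx2 was lost without control 1 (log2 fold change -0.25, adjusted p 0.176), without Lhx2 cKO 1 (-0.28, 0.102) and without Lhx2 cKO 2 (-0.34, 0.0538). Defining neuronal and cortical markers were present in every library. The summed level of 10 pan-neuronal genes was 5943 and 5766 CPM in control and 6018 and 6290 CPM in Lhx2 cKO. Among the other marker lists, genes called lower were 7 of 8 for the cell cycle, 5 of 7 for intermediate progenitors, 4 of 10 for radial glia (with 1 higher), 5 of 5 for red blood cells, 1 of 5 for deep-layer and 2 of 5 for upper-layer neurons. Genes called higher were 4 of 6 for Cajal-Retzius cells and 5 of 6 for oligodendrocyte precursors. Of the pan-neuronal genes 2 were called higher and 2 lower, and the 1 choroid plexus gene measured was not called. Over all tested genes, 11.6% were called higher and 9.17% lower, the shares to set beside each count of a list or family. In lists this short, a count of 1 or 2 can lie near those shares. The part of these cell types in the channel results was not tested. In bulk tissue, fewer cells of a type and less RNA per cell cannot be told apart.

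Channel genes were called higher more often than lower. Of the 95, 27 were called higher (28.4%, against 11.6% of all tested genes) and 7 lower (7.37%, against 9.17%), so 35.8% were called in either direction, against 20.8% of all tested genes. The median log2 fold change was 0.22 over the channel genes and 0.003 over all tested genes. Both Lhx2 cKO libraries lay above both control libraries for 51 channel genes (53.7%, against 30.2% of all tested genes) and below both for 16 (16.8%, against 29.1%). Fold changes ran from -1.21 for Kcnn1 to 2.21 for Kcnj2 on the log2 scale. Of the 95 members, 16 were called with a change of at least 1.5-fold, against 1180 of the 13288 tested genes. Calls depended on level: 3 of the 33 members under 10 CPM were called, against 17 of 34 between 10 and 50 CPM and 14 of 28 above 50 CPM. Over all tested genes those shares were 16.3%, 20.7% and 24.5%.

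**Figure D1:**
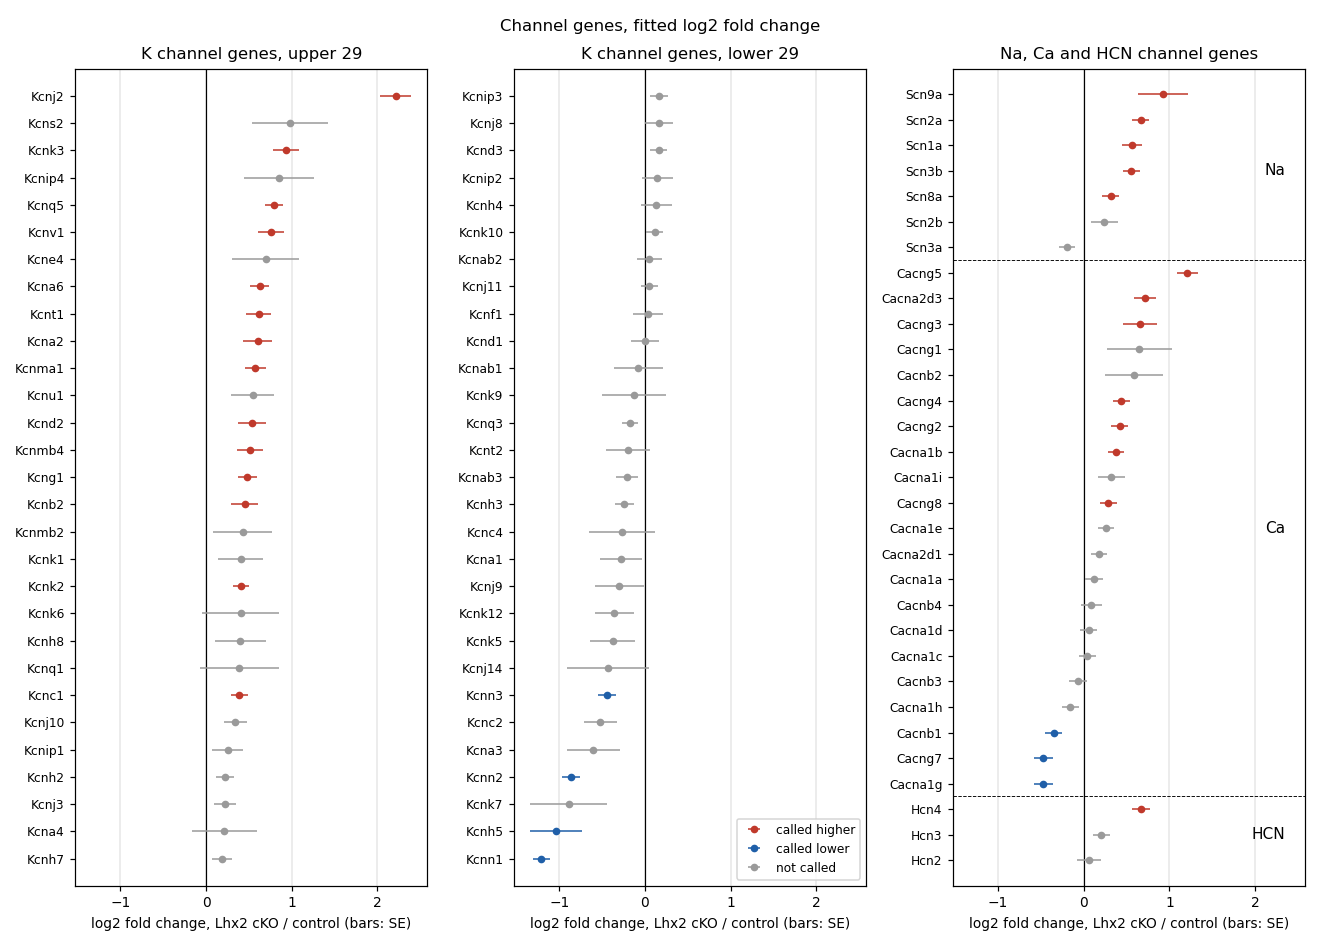
Fitted log2 fold change of Lhx2 cKO over control (x axis, bars are standard errors) for 89 of the 95 channel genes (y axis), in red where called higher, blue where called lower and grey where not called. Kcnj2 at 2.21 and Kcnn1 at -1.21 lie at the ends of the range.

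The promoter windows of 3 genes are shown first: Kcnj2, which rose most, and Kcnn1 and Kcnn3, members of the SK family, all of whose genes fell. Each is the stretch of 250 bases before an annotated start, written 5′ to 3′ on the gene's strand, from RefSeq on GRCm38.p6. That is not the build of the counts, for which the submitters' processing notes name mm39. Capitals mark CAGCTG, an E-box of the kind bHLH factors bind, and GGGCGG or its complement, a GC box. TAATTA, a core that LIM-homeodomain factors can bind, was searched as well. The motifs do not overlap in these windows. Kcnn1 has an upstream window at chr8:70863259-70863508 and another at chr8:70857009-70857258, both on the minus strand. Kcnn3 has 1 at chr3:89519914-89520163 and Kcnj2 has 1 at chr11:111065914-111066163, both on the plus strand. Kcnn2 is named only.
Kcnn1 first window: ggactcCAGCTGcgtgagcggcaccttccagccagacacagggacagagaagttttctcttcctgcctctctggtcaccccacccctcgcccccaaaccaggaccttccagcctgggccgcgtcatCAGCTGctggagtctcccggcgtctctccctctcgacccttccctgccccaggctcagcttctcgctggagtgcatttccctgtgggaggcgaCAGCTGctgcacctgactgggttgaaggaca
Kcnn1 second window: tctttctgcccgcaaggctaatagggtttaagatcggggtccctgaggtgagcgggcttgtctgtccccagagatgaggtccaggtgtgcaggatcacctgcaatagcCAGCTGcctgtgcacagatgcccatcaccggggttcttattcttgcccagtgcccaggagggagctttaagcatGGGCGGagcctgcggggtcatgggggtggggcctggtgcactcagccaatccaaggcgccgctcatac
Kcnn3: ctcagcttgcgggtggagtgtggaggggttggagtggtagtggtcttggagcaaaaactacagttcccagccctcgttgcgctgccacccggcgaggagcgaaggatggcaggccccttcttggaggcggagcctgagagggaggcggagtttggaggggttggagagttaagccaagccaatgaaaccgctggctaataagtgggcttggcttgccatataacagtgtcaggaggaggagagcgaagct
Kcnj2: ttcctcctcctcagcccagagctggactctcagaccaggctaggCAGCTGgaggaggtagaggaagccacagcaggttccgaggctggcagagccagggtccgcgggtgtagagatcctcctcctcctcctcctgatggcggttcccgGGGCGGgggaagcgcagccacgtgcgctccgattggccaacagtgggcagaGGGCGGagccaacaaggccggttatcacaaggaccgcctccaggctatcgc

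The first Kcnn1 window held CAGCTG 3 times and the second held CAGCTG once and GGGCGG once. The Kcnj2 window held CAGCTG once and the GC box 2 times, and the Kcnn3 window held none of the motifs. CAGCTG stood in 13% of all 32851 windows of this length in the table. It stood in 25% of the 92 windows of the 63 channel genes that had an entry. The full set covers 27025 genes, so it holds genes outside the 13289 analysed here. A gene with several windows counts more than once in either set. The GC box stood in 32.7% of all windows and in 42.4% of the channel gene windows. TAATTA stood in 4.84% of all windows and in 0 of the 92 channel gene windows. CAGCTG was found in 8 of 27 windows of genes called higher, 2 of 7 of genes called lower and 13 of 58 of genes not called. The motifs were chosen after the expression values and these windows were seen, and a match describes letters only.

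Among the K channel genes, 14 of 62 were called higher (22.6%, against 11.6% of all tested genes) and 4 lower (6.45%, against 9.17%), and the median log2 fold change was 0.20. The lower calls held the whole SK family, the small-conductance channels that calcium opens after spikes, while the higher calls were spread over leak, inward-rectifier, BK, Kv7 and classical Kv genes. Kcnj2, encoding the inward rectifier Kir2.1, which holds the resting potential of many cell types, moved most. Without Lhx2 cKO 2, 9 K channel genes were called higher.

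All 3 SK genes were lower in Lhx2 cKO. Kcnn1 (SK1, ENSMUSG00000002908.18) was at 91.1 and 82.4 CPM in control and at 36.3 and 38.8 CPM in Lhx2 cKO. Both Lhx2 cKO libraries lay far below both control libraries, with a log2 change of -1.21 (standard error 0.102, adjusted p 2.95e-12). Kcnn2 (SK2, ENSMUSG00000054477.17) was at 73.6 and 78.9 CPM in control and at 44.8 and 39.2 CPM in Lhx2 cKO, without overlap of the groups. The log2 change was -0.86 (standard error 0.103, adjusted p 1.85e-08). Kcnn3 (SK3, ENSMUSG00000000794.10) was at 44.1 and 43.8 CPM in control and at 32.9 and 31.6 CPM in Lhx2 cKO, the smallest of the 3 differences. This log2 change was -0.45 (standard error 0.106, adjusted p 0.00164). Each of the 3 kept its call under every alternative run, including each omission of 1 library.

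On the scale of CPM per kilobase of gene length, which allows levels of different genes to be added, the SK genes summed to 33.9 and 32.7 in control and to 17.1 and 16.7 in Lhx2 cKO. The summed level in Lhx2 cKO was 0.51 of that in control. Kcnn1 made up 58.5% and 54.9% of the sum in control and 46.3% and 50.6% in Lhx2 cKO, while Kcnn3 went from 12.4% and 12.8% to 18.5% and 18.1%. The other 59 K channel genes summed to 240 and 233 CPM per kilobase in control and to 260 and 287 in Lhx2 cKO, a ratio of 1.16.

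The other calcium-activated family moved the opposite way. Kcnma1 (ENSMUSG00000063142.16), the pore of the large-conductance BK channel, was at 19.5 and 20.5 CPM in control and at 30.3 and 29.3 CPM in Lhx2 cKO. The groups did not overlap, and the log2 fold change was 0.57 (standard error 0.121, adjusted p 4.62e-04). Kcnmb4, the BK auxiliary subunit typical of neurons, was called higher at 0.52 on the log2 scale (adjusted p 0.0118), and Kcnmb2 had 0.43 without a call. Kcnmb4 shares 20.8% and 10.7% of its exon bases with 2 noncoding genes on the other strand. The Kcnmb4 call was lost without control 2 (adjusted p 0.0873) and without Lhx2 cKO 1 (0.113). Among the sodium-activated and Slo3 genes, Kcnt1 (ENSMUSG00000058740.15), which encodes the sodium-activated channel Slack, was at 12.5 and 13.4 CPM in control and at 18.5 and 21.2 CPM in Lhx2 cKO. On the log2 scale it changed by 0.62 (standard error 0.145, adjusted p 0.0016). Kcnt2 at -0.20 and Kcnu1 at 0.54 were not called.

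**Figure D2:**
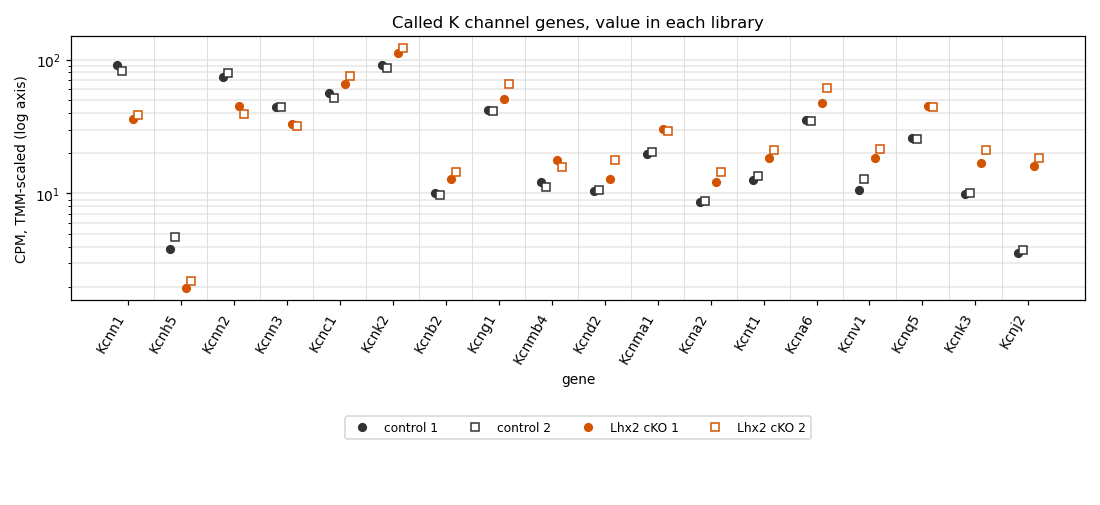
CPM on a log axis (y) of the 18 called K channel genes (x, ordered by fold change) in each library, with circles for replicate 1 and squares for replicate 2, dark for control and orange for Lhx2 cKO. Kcnn1, Kcnh5, Kcnn2 and Kcnn3 at the left are lower in both Lhx2 cKO libraries, and the other 14 are higher.

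Of 7 inward-rectifier genes 1 was called, higher (14.3%, against 11.6% of all tested genes). Kcnj2 (ENSMUSG00000041695.3) had 87 and 95 counts in control and 362 and 422 in Lhx2 cKO, or 3.59 and 3.80 CPM against 15.9 and 18.4 CPM. The means of 3.69 ± 0.151 and 17.1 ± 1.74 CPM (SD, n = 2) were 4.64-fold apart, and the log2 fold change was 2.21 (standard error 0.185, adjusted p 1.85e-12 in edgeR). Kcnj2 is also expressed outside neurons, among others in microglia and vascular smooth muscle. Beside it, 7 of 8 microglia genes were called higher (87.5%, against 11.6% of all tested genes). Their summed levels were 114 CPM in each control library and 230 and 254 CPM in Lhx2 cKO, with no member at 0 in any library. Of 9 vascular genes 5 were called higher (55.6%) and 1 lower (11.1%). Their sums were 278 and 315 CPM in control and 339 and 381 CPM in Lhx2 cKO. The higher ones were Cldn5, Cdh5, Kdr, Pecam1 and Cspg4, the last also in the oligodendrocyte precursor list. Rgs5 was called lower at -0.34 on the log2 scale, and Abcc9 at -0.15 and Pdgfrb at 0.06 were not called. The part of microglia and vascular cells in the rise of Kcnj2 was not tested. Kcnj8, an inward rectifier of pericytes and itself in that vascular list, was at 10.8 and 15.4 CPM in control and at 13.4 and 15.8 CPM in Lhx2 cKO, so the groups overlapped.

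Kcnj11 (ENSMUSG00000096146.3), the Kir6.2 pore of ATP-sensitive channels, had the highest level per kilobase of all K channel genes, 39 in control and 40.4 in Lhx2 cKO. It was at 144 and 143 CPM in control and at 133 and 164 CPM in Lhx2 cKO, so the groups overlapped, and its log2 fold change was 0.05 (standard error 0.0994, adjusted p 0.777). Kcnj10, the Kir4.1 channel of astrocytes, was at 15.5 and 19.6 CPM in control and at 21 and 23.7 CPM in Lhx2 cKO, with a log2 fold change of 0.34 and an adjusted p of 0.0725. Beside it, 4 of the 5 measured astrocyte genes were called higher (80%, against 11.6% of all tested genes). Kcnj3, Kcnj9 and Kcnj14 lay between -0.43 and 0.22 without a call, and Kcnj3 shares 31.1% of its exon bases with a noncoding gene on the other strand.

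Leak channels of the K2P family set the resting conductance. Kcnk3 (TASK1, ENSMUSG00000049265.9) was at 9.90 and 10.04 CPM in control and at 17 and 21.2 CPM in Lhx2 cKO. The log2 fold change was 0.93 (standard error 0.155, adjusted p 1.23e-05), and both Lhx2 cKO libraries lay above both control libraries. Kcnk2 (TREK1, ENSMUSG00000037624.16), with the third-highest level per kilobase of the K channel genes, was at 90.2 and 85.7 CPM in control and at 112 and 121 CPM in Lhx2 cKO. Its log2 fold change was 0.41 (standard error 0.0959, adjusted p 0.00163), and 12.2% of its exon bases are shared with a gene on the other strand. The other 7 K2P genes were not called, with log2 fold changes from -0.89 for Kcnk7 to 0.41 for Kcnk1. Kcnk10, the only one of these 7 above 10 CPM, was at 0.12.

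In the Kv7 family, whose channels carry the slow M-current that damps repetitive firing, Kcnq5 (ENSMUSG00000028033.17) was at 25.7 and 25.4 CPM in control and at 44.7 and 44.1 CPM in Lhx2 cKO. Replicates differed by less than 1 CPM, and the log2 fold change was 0.80 (standard error 0.108, adjusted p 3.11e-07). Kcnq3, a neuronal Kv7 subunit, was at 135 and 142 CPM in control and at 121 and 126 CPM in Lhx2 cKO, a log2 fold change of -0.17 (adjusted p 0.204). Per kilobase, the level of Kcnq5 was 0.36 and 0.34 of that of Kcnq3 in control and 0.71 and 0.67 in Lhx2 cKO.

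Among classical Kv pore genes, the low-threshold Kv1 family had 2 of 5 members called higher (40%, against 11.6% of all tested genes). Kcna6 (ENSMUSG00000038077.8) was at 35.5 and 34.6 CPM in control and at 46.9 and 61.3 CPM in Lhx2 cKO, a log2 change of 0.63 (standard error 0.111, adjusted p 3.73e-05), although 39.6% of its exon bases are shared with a noncoding gene on the other strand. Without Lhx2 cKO 2 it was 0.42 (adjusted p 0.0201). Kcna2 (ENSMUSG00000040724.6), an axonal Kv1 subunit, was at 8.66 and 8.80 CPM in control and at 12.1 and 14.5 CPM in Lhx2 cKO, a log2 change of 0.60 (standard error 0.168, adjusted p 0.00767). In the fast-spiking Kv3 family, Kcnc1 (ENSMUSG00000058975.8) was at 56 and 51.4 CPM in control and at 65.1 and 75.4 CPM in Lhx2 cKO, a log2 change of 0.39 (standard error 0.102, adjusted p 0.0046). Its relative Kcnc2 had -0.52 with an adjusted p of 0.0513, and both its Lhx2 cKO libraries lay below control. In edgeR, Kcnc2 was called lower with upper-quartile scaling (adjusted p 0.0487) and with library totals as the scaling (0.0479). Kcnd2, an A-type channel of dendrites, and Kcnb2, a delayed rectifier, were called higher at 0.54 and 0.45 on the log2 scale (adjusted p 0.0158 and 0.0433).

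Lhx2 cKO 2 was the higher Lhx2 cKO library for Kcna2, Kcnc1, Kcnd2, Kcnb2 and Kcng1, a silent subunit described next. Without it their log2 fold changes were 0.47, 0.28, 0.27, 0.36 and 0.27, with adjusted p from 0.156 to 0.479. The call of Kcnb2 was also lost without control 1 (adjusted p 0.134), without control 2 (0.151), with library totals as the scaling (0.0563) and with DESeq2 (0.106). That of Kcnd2 was also lost without control 1 (0.0668) and with DESeq2 (0.0587).

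The silent Kv genes, whose subunits form no channel alone and modify Kv2 channels, all had positive fold changes. Kcnv1 (ENSMUSG00000022342.7) was at 10.5 and 12.9 CPM in control and at 18.2 and 21.5 CPM in Lhx2 cKO, a log2 change of 0.76 (standard error 0.151, adjusted p 1.98e-04). Kcng1 (ENSMUSG00000074575.5) was at 42.3 and 41 CPM in control and at 50.4 and 66 CPM in Lhx2 cKO, a log2 change of 0.48 (standard error 0.11, adjusted p 0.00109). Kcnf1 at 0.03 and Kcns2 at 0.98, the latter from 1.05 to 2.08 CPM, were not called. In the ether-a-go-go family, Kcnh5 was the 1 member of 6 called, and it was lower (16.7%, against 9.17% of all tested genes). Kcnh5 was low, at 3.88 and 4.72 CPM in control and at 1.98 and 2.22 CPM in Lhx2 cKO, with a standard error of 0.303. It fell by 1.03 on the log2 scale (adjusted p 0.0112), and its call was lost without control 2 (adjusted p 0.107) and without Lhx2 cKO 1 (0.064). Kcnh2, the ERG channel, was at 0.22 without a call.

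The 8 Kv auxiliary genes, which encode beta subunits, KChIPs and a KCNE subunit, had log2 fold changes from -0.21 for Kcnab3 to 0.85 for Kcnip4 and no call by edgeR, DESeq2 or limma-voom. At an unadjusted p under 0.05 edgeR gave 1 higher and 0 lower. Kcnip3, the most abundant of them in CPM, was at 38 and 35.6 CPM in control and at 41.8 and 40.7 CPM in Lhx2 cKO. Kcnip4 rested on 1.20 CPM in control and 2.17 CPM in Lhx2 cKO.

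Other K channel genes were not called. Among the Kv pore genes these included Kcna1 at -0.28, Kcna3 at -0.60 and Kcna4 at 0.21, Kcnc4 at -0.27, and Kcnd1 at 0.00 and Kcnd3 at 0.16 on the log2 scale. Kcnq1 was at 0.39, and the ether-a-go-go genes Kcnh3, Kcnh4, Kcnh7 and Kcnh8 lay between -0.24 and 0.40.

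Among the Na channel genes, 5 of 9 were called higher (55.6%, against 11.6% of all tested genes) and 0 lower, and the median log2 fold change was 0.56. DESeq2 and limma-voom also called 0 lower, and 2 had an unadjusted p under 0.05 in that direction. Without control 2, 3 were called higher and 1 lower, and without Lhx2 cKO 2 the median was 0.36. The pore genes Scn1a, Scn2a, Scn8a and Scn9a and the auxiliary gene Scn3b were higher in Lhx2 cKO, while Scn3a, the pore subunit typical of fetal brain, was not called. Scn2a (ENSMUSG00000075318.14), the main sodium channel of young excitatory axons, was at 58.8 and 59.5 CPM in control and at 89.8 and 97.8 CPM in Lhx2 cKO. The Lhx2 cKO libraries stood well apart from control, with a log2 change of 0.67 (standard error 0.0981, adjusted p 1.56e-06). Scn1a (ENSMUSG00000064329.14), prominent in inhibitory neurons, was at 25.4 and 28.6 CPM in control and at 43.3 and 36.4 CPM in Lhx2 cKO, a log2 change of 0.56 (standard error 0.114, adjusted p 2.72e-04). Beside it, 4 of 9 interneuron genes were called higher (44.4%), namely Npy, Sst, Gad2 and Slc32a1. The list summed to 286 and 257 CPM in control and to 380 and 384 CPM in Lhx2 cKO. Mean levels went from 31.2 to 74.2 CPM for Npy and from 42.3 to 89.2 CPM for Sst. Gad1 at -0.07, Lhx6 at -0.06 and Dlx1 at 0.07 on the log2 scale were not called, nor were Dlx2 and Dlx5. The part of interneurons in the value of Scn1a was not tested.

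Scn8a (ENSMUSG00000023033.15), a channel of axon initial segments and nodes, was at 173 and 154 CPM in control and at 208 and 198 CPM in Lhx2 cKO, a log2 change of 0.31 (standard error 0.0964, adjusted p 0.0164). Its call was lost without control 2 (0.23, adjusted p 0.194) and without Lhx2 cKO 1 (0.27, adjusted p 0.101). Scn9a (ENSMUSG00000075316.12), best known from sensory neurons, had 53 and 60 counts in control and 104 and 95 in Lhx2 cKO, a log2 change of 0.92 (standard error 0.295, adjusted p 0.0207). It lost its call in each omission of 1 library, at adjusted p from 0.0563 to 0.128. Scn3a (ENSMUSG00000057182.16) was at 120 and 138 CPM in control and at 115 and 110 CPM in Lhx2 cKO, a log2 change of -0.20 (standard error 0.0962, adjusted p 0.152). Without control 1 it was -0.30 (adjusted p 0.063) and without control 2 it was -0.093 (0.664).

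The make-up of the sodium pore genes differed between groups on the per-kilobase scale. Scn2a stood at 0.48 and 0.43 of the level of Scn3a in control and at 0.77 and 0.88 in Lhx2 cKO. Scn1a stood at 0.24 of Scn3a in each control library and at 0.43 and 0.38 in Lhx2 cKO. Scn8a was the pore gene with the highest level in both Lhx2 cKO libraries, at 1.46 and 1.45 of Scn3a, and was at 1.16 and 0.90 in control. The 6 pore genes summed to 27.9 and 28.2 CPM per kilobase in control and to 33.6 and 32.6 in Lhx2 cKO. These ratios are descriptions of 4 libraries and were given no test.

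The auxiliary subunit Scn3b (ENSMUSG00000049281.17) had the highest level per kilobase of the Na group, 27.5 in control and 40.5 in Lhx2 cKO. It was at 149 and 152 CPM in control and at 201 and 241 CPM in Lhx2 cKO, a log2 change of 0.56 (standard error 0.0988, adjusted p 3.70e-05). Scn2b at 0.24 was not called, although both its Lhx2 cKO libraries lay above both control libraries.

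**Figure D3:**
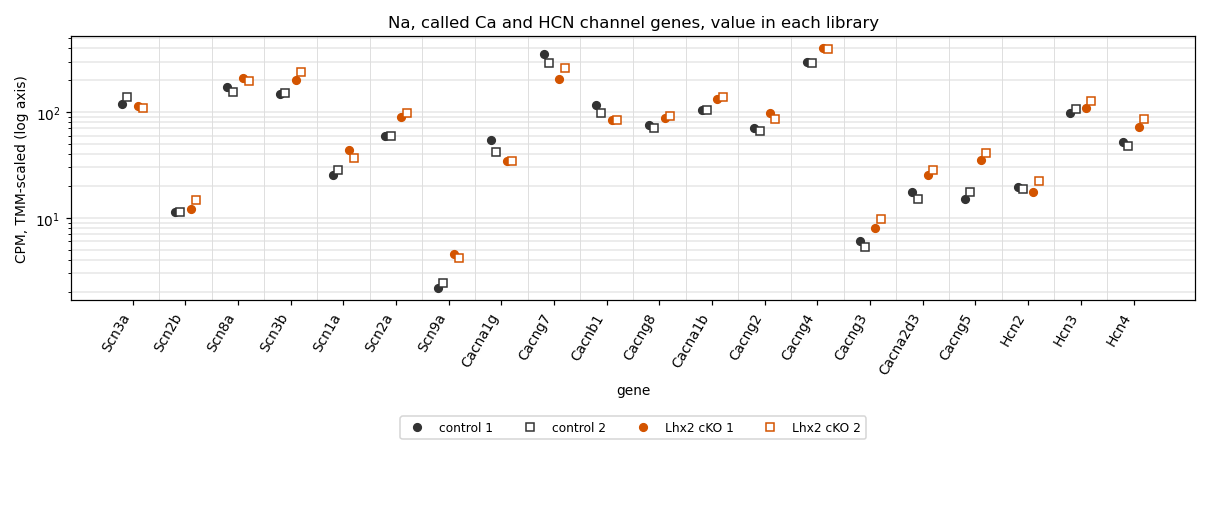
CPM on a log axis (y) of 7 of the 9 Na, the called Ca and the 3 HCN channel genes (x, ordered by fold change within each group) in each library, with circles for replicate 1 and squares for replicate 2, dark for control and orange for Lhx2 cKO. Scn2a and Cacng5 show the groups well apart, and Hcn2 shows them overlapping.

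Among the Ca channel genes, 7 of 21 were called higher (33.3%, against 11.6% of all tested genes) and 3 lower (14.3%, against 9.17%), with a median log2 fold change of 0.26. Without control 1, 1 was called lower. Of the 10 calls, 6 fell on Cacng genes, 5 of them higher and 1 lower. Outside the Cacng genes, Cacna1b and Cacna2d3 were called higher and Cacna1g and Cacnb1 lower. Most higher calls of the group were thus not on pore, beta or alpha2delta genes. Most Cacng genes encode transmembrane AMPA receptor regulatory proteins, which carry AMPA-type glutamate receptors to synapses and tune their gating. Cacng5 rose most, and Cacng7, which had the highest level per kilobase of the Cacng genes in both control libraries, fell.

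Of the 7 Cacng genes 5 were called higher (71.4%, against 11.6% of all tested genes) and 1 lower (14.3%, against 9.17%). Cacng5 (ENSMUSG00000040373.13) was at 15.2 and 17.7 CPM in control and at 35.2 and 41 CPM in Lhx2 cKO. The means were 2.31-fold apart, with a log2 change of 1.21 (standard error 0.124, adjusted p 4.63e-10). Cacng4 (ENSMUSG00000020723.4), which is abundant in the fetal brain, was at 296 and 293 CPM in control and at 402 and 396 CPM in Lhx2 cKO, a log2 change of 0.44 (standard error 0.0985, adjusted p 9.40e-04). Replicates of Cacng4 differed far less than the groups. Cacng2 (stargazin, ENSMUSG00000019146.3) was at 71.1 and 66.2 CPM in control and at 97.6 and 86 CPM in Lhx2 cKO, a log2 change of 0.42 (standard error 0.0992, adjusted p 0.00162). Cacng3 (ENSMUSG00000066189.10) was at 6.06 and 5.28 CPM in control and at 8.09 and 9.79 CPM in Lhx2 cKO, a log2 change of 0.66 (standard error 0.201, adjusted p 0.0156), and lost its call without control 2 (adjusted p 0.105) or Lhx2 cKO 2 (0.221).

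Cacng8 (ENSMUSG00000053395.16), the TARP of hippocampal AMPA receptors, was at 75.8 and 71.3 CPM in control and at 87.9 and 91.5 CPM in Lhx2 cKO, a log2 change of 0.29 (standard error 0.0969, adjusted p 0.0296). This call was lost in each omission of 1 library, at adjusted p from 0.0574 to 0.183, and with library totals as the scaling (0.0535). Cacng7 (ENSMUSG00000069806.6) was at 355 and 289 CPM in control and at 205 and 259 CPM in Lhx2 cKO, a log2 change of -0.47 (standard error 0.108, adjusted p 0.00119). The replicates of Cacng7 differed in both groups, and without Lhx2 cKO 1 its log2 fold change was -0.31 (adjusted p 0.0667). Cacng1, the gamma subunit of muscle calcium channels, was at 1.55 CPM in control and 2.43 CPM in Lhx2 cKO and was not called.

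On the per-kilobase scale Cacng7 made up 51.7% and 47.3% of the summed Cacng genes in control and 31.7% and 36.9% in Lhx2 cKO. Cacng4 went from 29.5% and 32.7% to 42.3% and 38.5%, so it was the largest part of the sum in both Lhx2 cKO libraries and in neither control library. The sum itself overlapped between the groups, at 281 and 250 in control and at 266 and 288 in Lhx2 cKO. Cacng5 stood at 0.027 and 0.039 of the level of Cacng7 in control and at 0.11 and 0.10 in Lhx2 cKO.

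**Figure D4:**
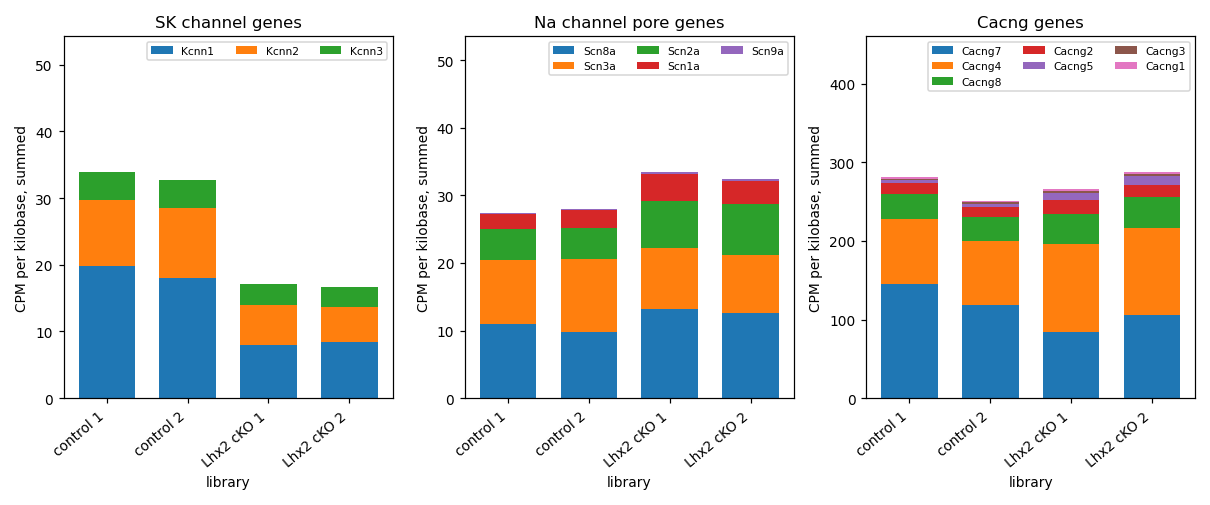
Stacked CPM per kilobase of gene length (y) in each of the 4 libraries (x) for the 3 SK genes, 5 of the 6 Na channel pore genes and the 7 Cacng genes. The SK stack falls from 33.9 and 32.7 in control to 17.1 and 16.7 in Lhx2 cKO, while the Cacng stacks overlap in height.

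Of the 5 high-voltage-activated pore genes, 1 was called, Cacna1b, higher (20%, against 11.6% of all tested genes). Cacna1b (ENSMUSG00000004113.19), the N-type channel of presynaptic terminals, was at 104 and 105 CPM in control and at 134.3 and 137.6 CPM in Lhx2 cKO, a log2 change of 0.38 (standard error 0.0935, adjusted p 0.00248). Cacna1e, the R-type channel, was at 124 and 106 CPM in control and at 140.4 and 134.3 CPM in Lhx2 cKO, a log2 fold change of 0.26 with an adjusted p of 0.0517, and was called under 4 of the 8 alternatives with all libraries. The P/Q-type gene Cacna1a at 0.12 and the L-type genes Cacna1c at 0.04 and Cacna1d at 0.06 were not called.

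Of the 3 low-voltage-activated T-type genes, whose channels open near rest, 1 was called, Cacna1g, lower (33.3%, against 9.17% of all tested genes). Cacna1g (ENSMUSG00000020866.18) was at 54.3 and 42.3 CPM in control and at 34.8 and 34.6 CPM in Lhx2 cKO, a log2 change of -0.47 (standard error 0.111, adjusted p 0.00148). Control 1 was the higher control library, and without it the log2 fold change was -0.30 (adjusted p 0.134). Cacna1h, which made up 86.8% to 89.2% of the T-type sum per kilobase in the 4 libraries, was at 439 and 413 CPM in control and at 390 and 374 CPM in Lhx2 cKO. Its log2 fold change was -0.16 (standard error 0.1, adjusted p 0.291), and the groups did not overlap.

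Among the auxiliary genes of calcium channels, Cacna2d3 (ENSMUSG00000021991.10), an alpha2delta subunit that promotes surface delivery, was at 17.6 and 15.2 CPM in control and at 25.6 and 28.2 CPM in Lhx2 cKO. Its log2 fold change was 0.72 (standard error 0.131, adjusted p 6.13e-05). Cacna2d1 had 0.18 without a call. Cacnb1 (ENSMUSG00000020882.18), a cytoplasmic beta subunit, was at 116 and 96.9 CPM in control and at 83.5 and 83.3 CPM in Lhx2 cKO, a log2 change of -0.35 (standard error 0.0993, adjusted p 0.00888). Without control 1 it was -0.23 (adjusted p 0.215). Cacnb3 (ENSMUSG00000003352.15), the most abundant beta subunit with a level of 103 CPM per kilobase in control and 98.4 in Lhx2 cKO, was at 426 and 403 CPM in control and at 416 and 373 CPM in Lhx2 cKO. Its groups overlapped, with a log2 change of -0.07 (standard error 0.102, adjusted p 0.688). The T-type gene Cacna1i at 0.32 and the beta subunits Cacnb2 at 0.59 and Cacnb4 at 0.09 were not called either.

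Of the 3 HCN genes measured, 1 was called higher (33.3%, against 11.6% of all tested genes) and 0 lower. Hcn4 (ENSMUSG00000032338.10), a slow HCN channel, was at 52.4 and 47.3 CPM in control and at 72.6 and 85.7 CPM in Lhx2 cKO. Both Lhx2 cKO libraries were above both control libraries, with a log2 change of 0.67 (standard error 0.104, adjusted p 4.03e-06). Hcn3 (ENSMUSG00000028051.11), the most abundant of the 3 per kilobase at 24.7 in control and 28.4 in Lhx2 cKO, was at 98.1 and 107 CPM in control and at 108 and 128 CPM in Lhx2 cKO. Its log2 fold change was 0.20 (standard error 0.0988, adjusted p 0.147), and 17.1% of its exon bases are shared with Pklr on the other strand. The value of Hcn3 turned on single libraries: it was 0.32 without Lhx2 cKO 1 (adjusted p 0.0454, called), 0.27 without control 2 (0.108), 0.13 without control 1 (0.55) and 0.071 without Lhx2 cKO 2 (0.801). Hcn2 (ENSMUSG00000020331.10) was at 19.5 and 18.8 CPM in control and at 17.5 and 22.4 CPM in Lhx2 cKO, with overlapping groups and a log2 change of 0.06 (standard error 0.138, adjusted p 0.812). Hcn4 made up 22.4% and 19.6% of the HCN sum per kilobase in control and 27.4% and 27% in Lhx2 cKO.

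Genes that work with these channels but lie outside the symbol rule moved in both directions. Of 20 channel partners, 5 were called higher (25%, against 11.6% of all tested genes) and 4 lower (20%, against 9.17%), with a median log2 fold change of 0.27. Cntn1 at 1.02, an adhesion protein that binds sodium channels, and Dpp10 at 1.09, a transmembrane partner of Kv4 channels, were higher. Fgf11 at -0.88, one of the FGF-homologous factors that bind sodium channel tails, and Stac2 at -0.89, an adaptor that binds L-type calcium channels, were lower. Of 15 ion pumps and exchangers, 5 were called higher (33.3%, against 11.6%) and the other 10 were not called. Slc8a1, a sodium-calcium exchanger, was at 0.74, and the sodium pump gene Atp1b1 was at 0.60. Of 8 genes of the REST repressor complex, which keeps many neuronal genes silent outside neurons, 4 were called lower (50%, against 9.17%), led by Rcor2 at -0.87. Rest itself was at 0.33 without a call (adjusted p 0.12). The part of the REST complex genes in the channel results was not tested.

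In the authors' deposited table, 33 of the 95 channel genes had an adjusted p under 0.05, 26 of them higher and 7 lower, and each was called here in the same direction. The log2 fold changes in the authors' deposited table differed from those fitted here by at most 0.0104. Both rest on the same 4 libraries, so the match is not independent support.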

How the data were processed

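RNA-seq of E15 cortex gave 4 libraries. Per the submitters' processing notes, Trim Galore, Subread, featureCounts, edgeR and mm39 were used, with no version. The annotation and the use of strand are not given in the sources used here. The authors deposited raw read counts per gene and the gene length in bases (unit other). The authors' log2 fold change and log2 CPM, the authors' p-value and adjusted p-value, and the deposited -log10 of the adjusted p-value are in the same table. Its lowest row total was 102 counts.

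Counts were fitted with edgeR 4.0.16 in R 4.3.3: TMM scaling (factors 0.973 to 1.022), filterByExpr (minimum 10 counts, 1 gene removed, no channel gene), glmQLFit and glmQLFTest, two-sided, without covariates, Benjamini-Hochberg over 13288 genes. Standard errors are the absolute log2 fold change over the square root of F. The fit draws each gene's spread toward a spread shared over genes, with a median prior of 38.7 degrees of freedom. A standard error or p-value is thus not that gene's own replicate spread alone. At this depth 3 counts correspond to 0.122 to 0.135 CPM; such floors cover counting error only. Counts of the 2 libraries in a group differed by more than counting error, with a chi-square divided by its degrees of freedom of 13.9 in control and 14.3 in Lhx2 cKO. The fit was tested on simulated data.

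The members, gene lists and tests were chosen with earlier results of these data known. By rule, the named genes of each group were the called ones in order of p (the first 14 K, 6 Na, 10 Ca and 4 HCN genes, with every library) and the 3 with the highest CPM per kilobase. Other called members have their fold change, with an adjusted p where a call was lost and, for Kcnh5, the level. Some uncalled members were named to account for their family, with a fold change and in part a level, and each partner list has up to 4 called genes by p. Some genes within the rule are not reported here by name and are not plotted, and counts and sums include them. The lists were 14 sets of cell type markers, channel partners, ion transporters and the REST complex. Exon overlaps come from GENCODE M21 (GRCm38), where all 95 identifiers matched: 32 members share exon bases with another gene, 30 of them with one on the other strand, and 7 share more than 10%. Without strand such reads cannot be told apart. Alternatives were other scalings, filters and thresholds, a replicate block, DESeq2 1.42.0, limma-voom (limma 3.58.1) and omission of each library.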

Additional observations from a re-analysis of the deposited data

How the results depend on the processing

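With all libraries, counts of called channel genes ran from 25 to 29 higher and from 7 to 8 lower under the alternative scalings, filters, tools and the replicate block, and all 34 called members kept their sign. Of the 34, 31 were called in each of these alternatives; Kcnb2, Kcnd2 and Cacng8 were not. An adjusted p under 0.01 gave 1697 calls over all genes and 3 Na channel genes higher, fewer by construction. With the replicate block 29 channel genes were called higher and 7 lower. Cacna1e (adjusted p 0.0318) and 1 other member were called there in addition, and no other member's call changed. The replicate numbers share only a number: deviations of replicate 1 from replicate 2 in the 2 groups had a correlation of 0.000974 across genes.

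Omission of 1 library leaves 1 in its group, which is then assumed to vary like the other group, and fewer samples lower the counts. All genes called ranged from 1633 to 2396, K channel genes called higher from 9 to 14, Na channel genes called higher from 3 to 4 and lower from 0 to 1, Ca channel genes called lower from 1 to 3 and HCN channel genes called higher from 1 to 2. The median log2 fold change ranged from 0.146 to 0.204 for K and from 0.356 to 0.568 for Na channel genes, and that of Lhx2 from -0.376 to -0.25. Of the 34 calls, 20 were made in all 4 omissions, and all 34 kept their sign. Under 10 CPM the median standard error of members was 0.301, against 0.0993 above 50 CPM, so small changes of low genes were not detectable at this depth.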
